A study of Danio rerio with 5 samples.

Results

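Solute carriers are membrane proteins that move amino acids, sugars, ions, metals, nucleotides and vitamins across the plasma membrane and the membranes of organelles. They work as coupled transporters, exchangers or facilitators, and families are numbered by sequence, so that the family number in a gene name says roughly what is carried. An early fish embryo lives on its yolk and on mRNA laid down by the mother until its own genome takes over, and miR-430 is the microRNA family that the young genome makes to speed the removal of many maternal mRNAs. Roles of the genes below are those known from mammals unless zebrafish is named.

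The genes described here are the zebrafish Ensembl genes whose name begins with slc and a digit, in any case. Their mean level over the 5 libraries was at least 3 CPM. This unit is counts scaled to the library total, after that total was adjusted by a TMM factor that evens out libraries. They were 158 of the 11381 genes at that level. The symbol table held 436 such names, of which 375 had a row in the count tables, and 61 without a row are not analysed here. Of the 375, another 217 were below the minimum: 48 had a mean of 1 to 3 CPM, 153 had some counts but a mean under 1 CPM, and 16 had no count in any library. The closest genes above the line were SLC6A9 at 3.09 and SLC35B3 at 3.10 CPM, and the closest below it were one SLC48A1 gene (ENSDARG00000026907) at 2.83 and SLC40A1 at 2.76 CPM. In 136 of the 158 genes every library was at 3 CPM or more, and in 22 at least 1 library was lower. The label held with 2 exceptions by name: slc4a1ap is named for an adaptor protein of an anion exchanger and SLC7A6OS for its place opposite SLC7A6, and neither is known as a transporter.

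Poly(A)+ RNA of whole embryos was sequenced with strand-specific libraries at 6 h after fertilization, the shield stage, in 5 groups of 1 library from 15 pooled embryos each. The groups were untreated wild type of the mixed strain TU/AB/TL/TLF, untreated embryos of the strain MZdicer (hu896/hu896), and injected MZdicer embryos. MZdicer embryos lack maternal and zygotic Dicer and so cannot cut the microRNA precursors that need it. The injected embryos received, at the 1-cell stage, 1 nl of a 25 µM stock of 1 of 3 forms of miR-430. These forms were a duplex, an Ago2 hairpin, whose maturation runs through the Argonaute 2 protein and does not need Dicer, and a version of this hairpin that carries 3 phosphorothioate linkages (3xPS hairpin), which the study calls nontrimmable. The comparisons ask which transcripts differ without Dicer and how far each form of miR-430 brings them back. No mock-injected library was used here, so the injection and the miR-430 it carried cannot be told apart. Strain background and loss of Dicer cannot be told apart between wild type and MZdicer, and in bulk RNA fewer cells of a type and less RNA per cell cannot be told apart either.

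Total gene counts ranged from 14867084 in MZdicer to 26300080 in wild type. DICER1 itself (ENSDARG00000001129) was at 36.5 CPM in wild type and at 20.1 to 23.0 CPM in the 4 MZdicer libraries, and an RNA level does not show whether the protein is lost. Every marker of tissues not yet formed had a mean below 3 CPM, with a sum of 2.79 to 5.08 CPM over 12 genes, while 5 shield-stage markers summed to 1361 to 1575 CPM. With 1 library per group, differences were not checked against replicates and carry no p-value. A gene is called higher or lower in a comparison when the ratio of CPM + 0.5 was at least 2-fold and the 95% exact interval of the 2 counts excluded equality. Folds are ratios of CPM, and intervals, given in brackets, cover counting error only.

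The 158 genes together held 1.05% of all counts in wild type and 1.08% in MZdicer. They held 1.20% after the duplex, 1.13% after the hairpin and 1.15% after the 3xPS hairpin. With totals adjusted by TMM factors the shares were 1.08% in wild type and 1.07% in MZdicer. They were then 1.20% after the duplex, 1.11% after the hairpin and 1.15% after the 3xPS hairpin. The order of wild type and MZdicer thus depends on the scaling. Per kilobase of gene length their median was 8.57 RPKM, against 10.3 RPKM over all 11381 genes. RPKM, as the authors deposited it, is scaled to the unadjusted library total and to gene length. A few genes carried much of the total: the 5 with the highest mean CPM held 34.1% to 41.1% of the solute carrier counts in a library. Ranked by mean RPKM, which need not give the same 5 genes, SLC25A5 came first at 1255 RPKM. It is the ADP/ATP carrier of the inner mitochondrial membrane. Then came SLC7A8 at 312 RPKM, an amino acid exchanger, and SLC3A2 at 277 RPKM, the heavy chain that such exchangers need to reach the cell surface. SLC25A3, the mitochondrial phosphate carrier, was at 222 RPKM. SLC37A2, a sugar-phosphate antiporter, was at 128 RPKM, SLC16A1, a lactate and pyruvate transporter, at 124 RPKM, and SLC43A1 and 1 SLC43A2 gene (ENSDARG00000061120), both carriers of large neutral amino acids, at 110 RPKM each. The most abundant transcripts thus serve mitochondrial energy exchange, uptake of neutral amino acids and monocarboxylate transport.

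None of these 8 abundant genes was called in MZdicer against wild type. SLC25A5 was at 2090 CPM in wild type, 1534 in MZdicer, 1687 after the duplex, 1609 after the hairpin and 1494 after the 3xPS hairpin. SLC7A8 was at 1090 CPM in wild type, 970 in MZdicer, 1493 after the duplex, 1143 after the hairpin and 1319 after the 3xPS hairpin. SLC3A2 stood at 547, 446, 697, 527 and 594 CPM in the same order. SLC25A5 was highest in wild type, while the exchanger and its heavy chain were highest with the duplex and lowest in MZdicer. Over all 158 genes the highest library was a median 1.71 times the lowest, against 1.61 times over all genes, and the ratio was at least 2 in 52 genes (32.9%, against 30.0% of all genes) and at least 4 in 10. Wild type was the lowest library for 77 of the 158 (48.7%, against 39.4% of all genes).

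In MZdicer against wild type, 31 of the 158 genes were called higher (19.6%, against 15.9% of all genes) and 5 lower (3.16%, against 4.83%). Both shares are near those of all genes, so the family as a whole does not stand apart by its number of calls. The median log2 ratio was 0.18, beside -0.00 over all genes, and 58.9% of the ratios were above 0, beside 49.9%. With upper-quartile scaling 28 were called higher and 11 lower, and the median was -0.01, beside -0.20 over all genes. Higher calls were then 71.8% of the solute carrier calls in place of 86.1%. Shares called over all genes are not given for that scaling, so its counts are not read against a background. The genes called higher include organelle and cell-surface carriers of zinc, lactate and related acids, and cations. The 22 genes that were under 3 CPM in some library include 11 of these calls, 9 of them higher, and such genes passed the minimum through their higher libraries. Counts given below for single transport groups, which are small, are to be read against 15.9% of all genes called higher and 4.83% called lower. The groups follow the family number alone, so a gene may not carry the substrate that its group is named for.

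**Figure D1:**
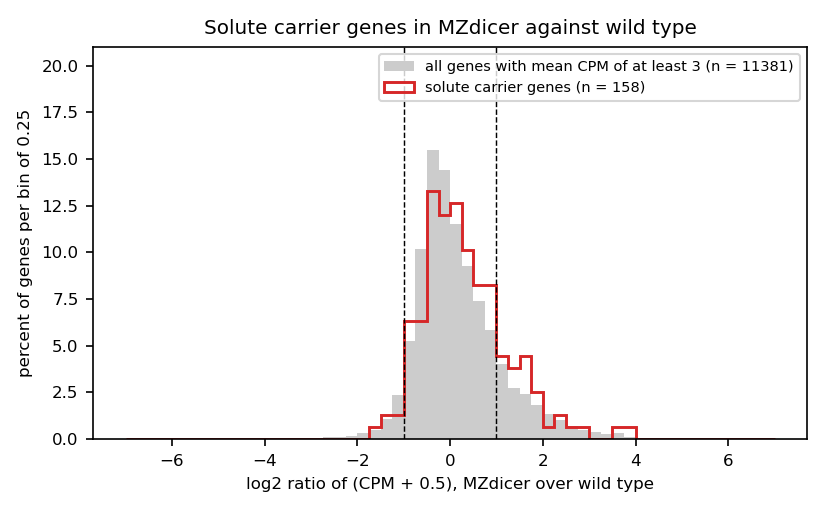
Distribution of the log2 ratio of CPM + 0.5 in MZdicer over wild type (x axis) as the percent of genes per bin of 0.25 (y axis), for the 158 solute carrier genes (red line) and all 11381 genes with a mean of at least 3 CPM (grey); dashed lines mark 2-fold. The solute carrier distribution lies slightly to the right of that of all genes, with medians of 0.18 and -0.00, and 19.6% were called higher against 15.9% and 3.16% lower against 4.83%.

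Zinc carriers gave some of the largest ratios. SLC30A4, which loads zinc from the cytosol into vesicles (ENSDARG00000007180), was at 5.86 CPM in wild type, 76.3 in MZdicer, 16.5 after the duplex, 68.0 after the hairpin and 70.7 after the 3xPS hairpin. MZdicer was 13.0-fold above wild type (10.97 to 15.55). SLC30A9, linked to zinc export from mitochondria, was at 10.8 CPM in wild type, 45.7 in MZdicer, 17.4 after the duplex, 40.4 after the hairpin and 38.3 after the 3xPS hairpin, a 4.22-fold difference between MZdicer and wild type (3.67 to 4.87). For both genes wild type and duplex lay low, and MZdicer and both hairpin libraries lay high. SLC39A10, which takes zinc into the cytosol, was at 56.9, 191, 162, 179 and 173 CPM in the same order and 3.35-fold higher in MZdicer (3.14 to 3.57), with the duplex library much closer to MZdicer than to wild type. These were the 3 called among 17 metal ion carriers, whose median log2 ratio was 0.14. The 2 metal carriers most abundant per kilobase, the zinc importers SLC39A5 and slc39a1, were not called: SLC39A5 was at 140 CPM in wild type and 120 in MZdicer, and slc39a1 at 106 and 92.3 CPM.

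Among 7 carriers of mono-, di- and tricarboxylates 3 were called higher and none lower; the median log2 ratio was 0.46. SLC16A3, which exports lactate from cells that run on glycolysis, was at 42.5 CPM in wild type, 281 in MZdicer, 161 after the duplex, 188 after the hairpin and 227 after the 3xPS hairpin, and was 6.61-fold higher in MZdicer (6.18 to 7.07). SLC16A6, which in zebrafish exports ketone bodies from the liver, was at 10.2, 57.8, 20.6, 32.1 and 37.6 CPM in that order, 5.66-fold higher in MZdicer (4.92 to 6.52). SLC16A9, which carries carnitine and creatine, was at 1.65, 7.36, 5.57, 7.83 and 9.32 CPM, 4.45-fold higher (3.09 to 6.51). Wild type was the lowest library for all 3 genes, and the duplex library was the lowest of the 4 MZdicer libraries. The most abundant member of the same family, one SLC16A1 gene (ENSDARG00000068572), was not called. It lay at 339 CPM in wild type, 257 in MZdicer, 292 after the duplex, 218 after the hairpin and 260 after the 3xPS hairpin. A second SLC16A1 gene (ENSDARG00000016963), below the minimum, was higher in MZdicer. It was at 0.354 CPM in wild type, 5.75 in MZdicer and 0.355 after the duplex, from 9, 86 and 9 counts. Both hairpin libraries lay between its duplex and MZdicer levels. BSG, the chaperone that takes SLC16A1 and SLC16A3 to the cell surface, was at 804 CPM in wild type and 945 in MZdicer and was not called.

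Carriers of sodium, potassium, calcium and protons numbered 9, of which 4 were called higher and none lower; their median log2 ratio was 0.98. SLC12A7, a potassium-chloride cotransporter, was at 6.80 CPM in wild type, 37.6 in MZdicer, 21.2 after the duplex, 40.1 after the hairpin and 38.5 after the 3xPS hairpin, and was 5.52-fold higher in MZdicer (4.65 to 6.59). SLC9A8, a sodium-proton exchanger of the Golgi, was at 1.73, 7.49, 3.24, 6.74 and 7.63 CPM, 4.33-fold higher (3.03 to 6.28). SLC8A1, the sodium-calcium exchanger that heart cells depend on, was 3.20-fold higher (2.71 to 3.80), from 8.54 to 27.3 CPM, and SLC12A9 2.42-fold (2.02 to 2.90), from 8.26 to 19.99 CPM. At the other end, the sodium-proton exchanger SLC9A2 was at 74.2 CPM in wild type and 37.6 in MZdicer, with a log2 ratio of -0.97, and was not called.

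Anion carriers went both ways. Of 10 carriers of bicarbonate, chloride and sulfate 3 were called higher and 1 lower (median log2 ratio 0.60). SLC26A11, an anion transporter, was at 1.77 CPM in wild type, 17.1 in MZdicer, 6.47 after the duplex, 13.1 after the hairpin and 15.7 after the 3xPS hairpin, and was 9.63-fold higher in MZdicer (6.99 to 13.5). SLC26A2, a sulfate transporter needed for cartilage, was 2.12-fold higher (1.81 to 2.48), from 11.6 to 24.7 CPM, and lay at 26.6 to 30.5 CPM in the 3 injected libraries. The gene called lower, slc4a10a, a sodium-dependent bicarbonate transporter, was at 49.05 CPM in wild type, 16.4 in MZdicer, 25.5 after the duplex, 15.3 after the hairpin and 16.03 after the 3xPS hairpin. Its level in MZdicer was 2.98 times lower (2.60 to 3.43), and wild type stood above the other 4 libraries.

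Amino acid carriers, the second largest group with 26 genes, had 4 called higher and 1 lower and a median log2 ratio of 0.16. SLC7A14, a lysosomal member of the cationic amino acid family, was at 5.15 CPM in wild type and between 18.4 and 22.6 CPM in the 4 MZdicer libraries, and was 3.97-fold higher in MZdicer (3.23 to 4.91). SLC38A9, a lysosomal arginine sensor that signals to the growth kinase mTORC1, was 2.22-fold higher (1.86 to 2.65), at 8.97 CPM in wild type and 19.9 to 20.6 CPM in the other libraries. SLC7A4 was 2.82-fold higher (2.19 to 3.64). The gene called lower was one of the SLC7A3 pair, importers of arginine and lysine: SLC7A3 (ENSDARG00000020645) was at 124 CPM in wild type, 45.3 in MZdicer, 58.3 after the duplex, 55.2 after the hairpin and 66.0 after the 3xPS hairpin. Its level in MZdicer was 2.73 times lower (2.51 to 2.97), and none of the 3 injected libraries came near wild type.

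The 29 mitochondrial carriers were the largest group and had 2 called higher and 1 lower (median log2 ratio 0.17). SLC25A10, the dicarboxylate carrier, was at 12.3 CPM in wild type, 41.3 in MZdicer, 18.04 after the duplex, 40.4 after the hairpin and 36.5 after the 3xPS hairpin, and was 3.36-fold higher in MZdicer (2.93 to 3.86). The carrier gene slc25a14 was 3.22-fold higher (2.75 to 3.79), from 9.36 to 30.2 CPM. SLC25A16, linked to mitochondrial coenzyme A, was at 24.3, 11.6, 15.0, 13.3 and 10.6 CPM in the order of the groups and 2.09 times lower (1.76 to 2.48). That call rested on the scaling: it was lost with scaling to total counts, where the log2 ratio was -0.97. MTCH2, a relative of this family in the outer mitochondrial membrane that is named otherwise, was at 20.9 CPM in wild type, 89.0 in MZdicer, 14.9 after the duplex, 36.8 after the hairpin and 29.9 after the 3xPS hairpin, and was 4.25-fold higher in MZdicer (3.84 to 4.71). It was 1 of 12 measured genes, of 37 listed, that belong to a solute carrier family or resemble one but do not carry the name, and of these 2 were called higher and none lower. The other was SPNS1, a lysosomal phospholipid carrier, 2.47-fold higher (2.32 to 2.62), from 71.2 to 176 CPM.

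The largest ratio of all belonged to SLC46A3, a protein of the lysosomal membrane. It was at 0.865 CPM in wild type, 20.2 in MZdicer, 9.24 after the duplex, 11.6 after the hairpin and 13.3 after the 3xPS hairpin, 23.3-fold higher in MZdicer (15.1 to 37.8). Its family number puts it with 6 carriers of vitamins and folate, of which 2 were called higher and 1 lower (median log2 ratio 0.71). SLC46A1, the proton-coupled folate transporter, was 2.64-fold higher (1.88 to 3.74), from 2.28 to 6.02 CPM. The riboflavin transporter gene slc52a3-2a was at 6.06 CPM in wild type, 2.27 in MZdicer, 4.50 after the duplex, 1.66 after the hairpin and 2.42 after the 3xPS hairpin, 2.66 times lower in MZdicer (1.83 to 3.99). SLC28A2, a sodium-coupled purine nucleoside transporter and 1 of 3 nucleoside carriers, was at 7.08, 2.41, 3.67, 2.39 and 1.98 CPM, 2.94 times lower (2.05 to 4.33). Both low genes had their second highest level with the duplex. SLC48A1 (ENSDARG00000026109), which carries haem out of the lysosome, was at 16.4, 55.0, 25.2, 41.2 and 39.2 CPM and 3.34-fold higher in MZdicer (2.97 to 3.77).

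The remaining groups had few calls. Of 15 genes placed by family number with nucleotide sugar and Golgi carriers 2 were called higher, and what these 2 carry was not checked. SLC35F6 was 2.78-fold higher (2.62 to 2.95), from 68.8 to 191 CPM. SLC35F3 (ENSDARG00000059850) was 3.35-fold higher (2.21 to 5.16), from 1.42 to 4.75 CPM. A second SLC35F3 gene (ENSDARG00000075909), below the minimum, went the other way. It was at 4.25 CPM in wild type, 1.00 in MZdicer and 3.28 after the duplex. Of 6 sugar and polyol carriers 2 were called higher, SLC2A13 (ENSDARG00000076899), a proton-coupled myo-inositol transporter, at 2.80-fold (2.08 to 3.79) and SLC45A4 at 2.43-fold (1.82 to 3.27). The sugar carrier most abundant per kilobase, the glucose transporter SLC2A12, was at 240 CPM in wild type and 142 in MZdicer and was not called. Of 7 lipid carriers only SLC44A2, a choline transporter, was called, 2.82-fold higher (1.94 to 4.14), and of 7 carriers of bile acids, organic ions and drugs only slc22a16, a carnitine transporter, 2.48-fold higher (1.94 to 3.19). None of the 9 phosphate and vesicular anion carriers was called, and their median log2 ratio was -0.25. SLC5A6, a sodium-coupled vitamin transporter, was 2.45-fold higher (1.88 to 3.20), SLC49A4 3.12-fold (2.87 to 3.39), and SLC66A3 3.17-fold (2.28 to 4.43). With these, all 36 calls are spread over 15 of the 17 transport groups.

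**Figure D2:**
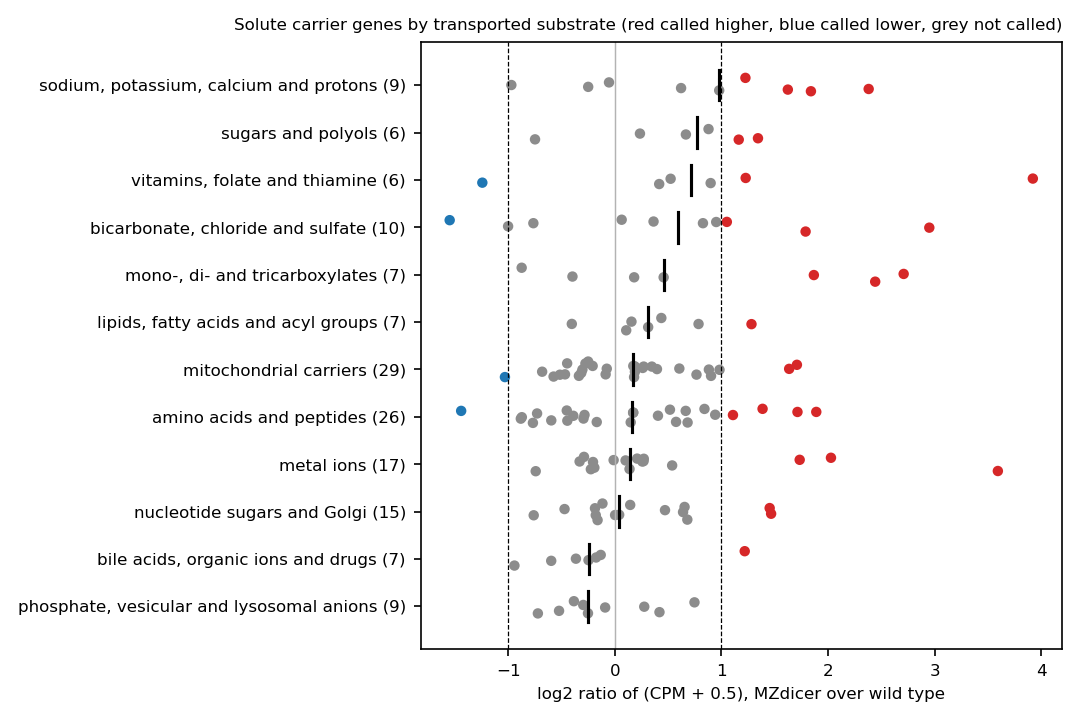
Log2 ratio of CPM + 0.5 in MZdicer over wild type (x axis) for each solute carrier gene, by transport group (y axis). Groups of at least 5 genes are shown, with the number of genes in parentheses. They follow the family number, not a measured substrate. Black bars are medians, dashed lines mark 2-fold, red points were called higher and blue points lower. Group medians run from -0.25 for phosphate and vesicular anions to 0.98 for sodium, potassium, calcium and protons.

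Other transcripts moved between the same libraries. The summed level of 6 enveloping layer markers was 11384 CPM in wild type and 7523 in MZdicer. It was 8887 after the duplex, 7995 after the hairpin and 7096 after the 3xPS hairpin. Of the 6, 2 were called lower in MZdicer, epcam (407 and 134 CPM) and krt5 (2007 and 827 CPM), and the rest were lower without a call. Of 5 shield-stage markers only chrd was called, lower in MZdicer (418 and 175 CPM). The summed level of 6 oocyte and germ cell markers was 393 CPM in wild type, 540 in MZdicer and 362 to 400 CPM in the injected libraries. The oocyte gene buc carried this difference, at 7.36 CPM in wild type and 169 in MZdicer. Without it the sum was 385 CPM in wild type and 371 in MZdicer, of which DDX4 held 299 and 297 CPM. DAZL was also called higher, at 8.97 CPM in wild type and 23.8 in MZdicer. Lower in MZdicer and not called were NANOS3, zp2.1 and zp3b, the last at 49.1 CPM in wild type and 26.3 in MZdicer. The 5 yolk syncytial layer markers summed to 190 to 229 CPM. Among them mxtx2 was at 2.75 CPM in wild type, 14.5 in MZdicer and 9.95 to 20.3 CPM in the injected libraries. GATA3 went the other way, at 119 CPM in wild type and 88.4 in MZdicer. The level of mxtx1 was 71.5 CPM in wild type and 85.5 in MZdicer, and apoa2 and apoa4b.1 were under 3 CPM in every library. Whether the solute carrier differences follow these cell layers or the maternal RNA still present was not tested. Genes called higher had a median length of 2893 bases, as over all genes called higher (2895), and the 5 called lower had 3222 bases, against 2021 over all genes called lower.

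Injection of the duplex was compared with uninjected MZdicer. Of the 158 genes 10 were called lower (6.33%, against 6.04% of all genes) and 3 higher (1.90%, against 1.27%), and the median log2 ratio was 0.03, beside 0.02 over all genes. These shares, too, are near the background. Genes under 3 CPM in some library made up 5 of these calls, 1 of them higher. This comparison and that of MZdicer with wild type share the MZdicer library, so a chance high count there would raise a gene in one and lower it in the other, and values are given side by side without a count of agreement. SLC30A4 was 4.62 times lower with the duplex (4.13 to 5.19), SLC16A6 2.81 times (2.52 to 3.14), SLC30A9 2.63 times (2.33 to 2.97) and SLC26A11 2.63 times (2.16 to 3.23). SLC25A10 was 2.29 times lower (2.02 to 2.59), SLC48A1 2.18 times (1.97 to 2.42) and SLC46A3 2.19 times (1.84 to 2.60). SLC9A8 was 2.31 times lower (1.72 to 3.12), and SLC66A3 2.47 times (1.82 to 3.37), the latter at 2.28, 7.22, 2.92, 6.21 and 5.93 CPM in the order of the groups. The tenth gene, slc17a9a, which loads ATP into vesicles, was at 13.5 CPM in wild type, 23.0 in MZdicer, 10.7 after the duplex, 14.2 after the hairpin and 12.2 after the 3xPS hairpin, 2.14 times lower with the duplex (1.82 to 2.52), and it was low with all 3 forms. Single zinc, monocarboxylate, anion, haem and mitochondrial carriers were thus among those lower with the duplex, not these groups as a whole. Called lower were 2 of 17 metal ion carriers and 1 of 7 carriers of mono-, di- and tricarboxylates. So were 1 of 10 carriers of bicarbonate, chloride and sulfate and 1 of 29 mitochondrial carriers.

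**Figure D3:**
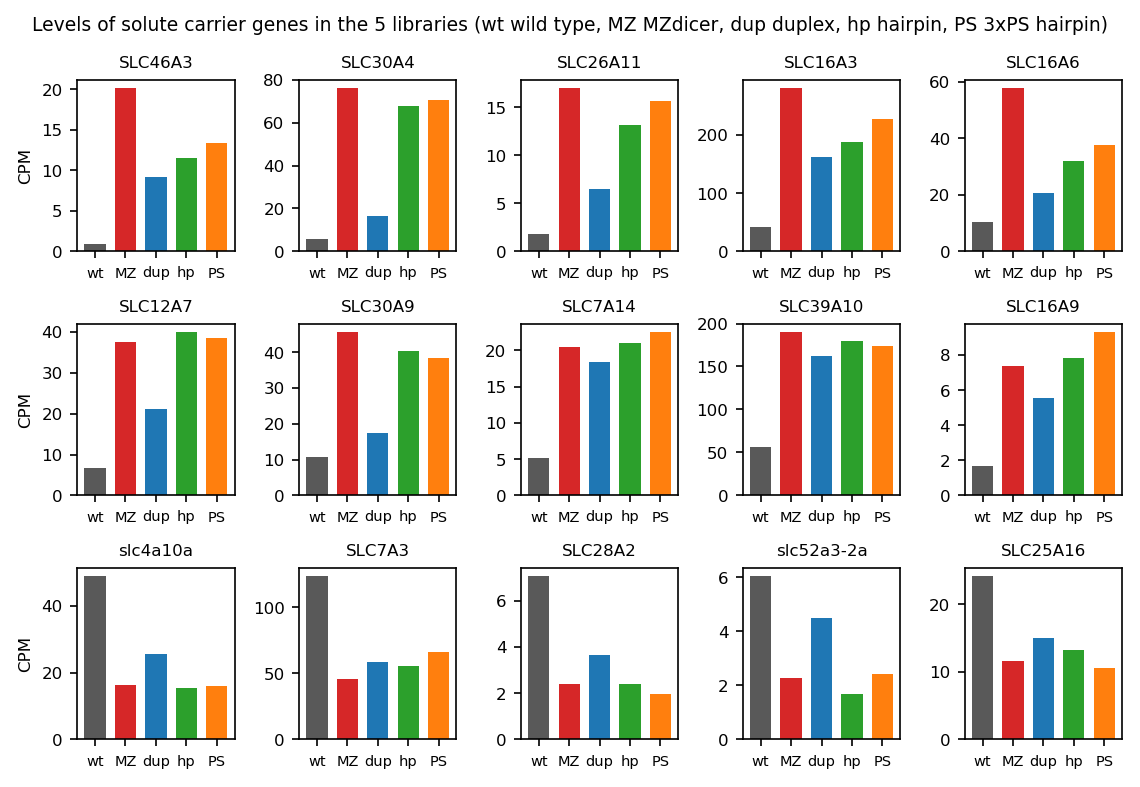
Level in CPM (y axis, linear from 0) of 15 solute carrier genes in the 5 libraries (x axis), 1 bar per library and no replicate error; the first 10 panels are genes called higher in the MZdicer library than in wild type, and the last 5 were called lower. SLC30A4, SLC30A9 and SLC16A6 were low in wild type and with the duplex, while SLC7A14 and SLC39A10 stayed near the MZdicer level in every injected library.

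The duplex library was compared with wild type directly, without the MZdicer library. Here 21 of the 158 genes were called higher (13.3%, against 8.33% of all genes) and 1 lower (0.633%, against 2.34%), and the median log2 ratio was 0.30 beside 0.02 over all genes. Genes under 3 CPM in some library, which passed the minimum through their higher libraries, made up 6 of the higher calls, SLC46A3 and SLC26A11 among them. SLC46A3 was still 10.7-fold above wild type (6.88 to 17.4), SLC16A3 3.79-fold (3.55 to 4.06), SLC7A14 3.58-fold (2.94 to 4.38) and SLC39A10 2.85-fold (2.68 to 3.03). SLC30A4 was 2.82-fold above it (2.33 to 3.42). SLC26A11 was 3.66-fold above it (2.62 to 5.21), slc22a16 3.25-fold (2.62 to 4.05) and SLC12A7 3.11-fold (2.61 to 3.71). SLC7A3 (ENSDARG00000020645) was 2.13 times below it (1.998 to 2.263).

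The genes higher with the duplex than in MZdicer were 3. The organic cation exporter gene slc47a1 was at 6.49 CPM in wild type, 3.14 in MZdicer, 10.9 after the duplex, 7.95 after the hairpin and 8.32 after the 3xPS hairpin, 3.48-fold higher with the duplex (2.55 to 4.85). The mitochondrial glutamate carrier gene slc25a22a was at 4.88, 3.95, 11.3, 3.25 and 7.55 CPM, 2.86-fold higher with the duplex (2.16 to 3.85), and it was not high with the plain hairpin. SLC22A2, an organic cation transporter, was at 3.42, 2.81, 6.35, 4.14 and 3.79 CPM and 2.26-fold higher (1.60 to 3.26). All 3 are genes of low level, under 12 CPM in every library.

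Some genes, not all of them abundant, were higher with the duplex by less than 2-fold but well beyond counting error. SLC25A5, the most abundant gene, changed less than those given here. SLC7A8 was 1.54-fold higher with the duplex than in MZdicer (1.51 to 1.57) and SLC3A2 1.56-fold (1.52 to 1.61). The second heavy chain gene, slc3a2a, was at 27.6 CPM in wild type, 16.4 in MZdicer, 32.01 after the duplex, 28.7 after the hairpin and 17.5 after the 3xPS hairpin, 1.95-fold higher with the duplex (1.69 to 2.25). SLC7A6, another light chain of these exchangers, was at 117, 132, 195, 137 and 201 CPM, and reads from SLC7A6OS on the opposite strand (13.0 to 16.7 CPM) may not have been kept apart from it. The amino acid group had no call with the duplex and a median log2 ratio of 0.25. Of its 26 genes 17 had a ratio above 0, and the lowest log2 ratio was -0.51. Its summed level was 1014 RPKM in wild type and 1007 in MZdicer. It was 1349 RPKM after the duplex, 1137 after the hairpin and 1237 after the 3xPS hairpin. SLC7A8 and SLC3A2, the most abundant genes of the group, weigh most in this sum. Among metal carriers SLC39A5 was 1.67-fold higher (1.58 to 1.76), at 120 CPM in MZdicer and 200.3 CPM with the duplex.

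Few solute carrier genes differed past 2-fold after the hairpin or the 3xPS hairpin. With the hairpin 1 gene was called higher than in MZdicer (0.633%, against 0.351% of all genes) and 0 lower (against 1.79%), with a median log2 ratio of -0.01. With the 3xPS hairpin 1 was called higher (0.633%, against 0.281%) and 0 lower (against 1.00%), with a median of 0.01. In both cases the gene was slc47a1, 2.53-fold higher with the hairpin (1.83 to 3.56) and 2.65-fold higher after the 3xPS hairpin (1.92 to 3.71). It was the only one of the 158 called higher with all 3 forms, all measured against the same MZdicer library. The lowest ratio with the hairpin was that of SLC16A6, 1.802 times below MZdicer (1.63 to 1.99), and with the 3xPS hairpin that of slc17a9a, 1.89 times below (1.61 to 2.21). A threshold of 1.5-fold was chosen after the data were seen. With it, 12 genes were lower with the hairpin (7.59%, against 5.90% of all genes) and 4 higher (2.53%, against 2.36%). With the 3xPS hairpin 3 were lower (1.90%, against 3.46%) and 5 higher (3.16%, against 2.28%). With the duplex 18 were lower (11.4%, against 12.1%) and 14 higher (8.86%, against 5.54%). At that threshold 53 genes were higher in MZdicer than in wild type (33.5%, against 26.2%) and 22 lower (13.9%, against 16.1%). With the duplex 51 were higher than in wild type (32.3%, against 18.9%) and 9 lower (5.70%, against 9.59%).

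**Figure D4:**
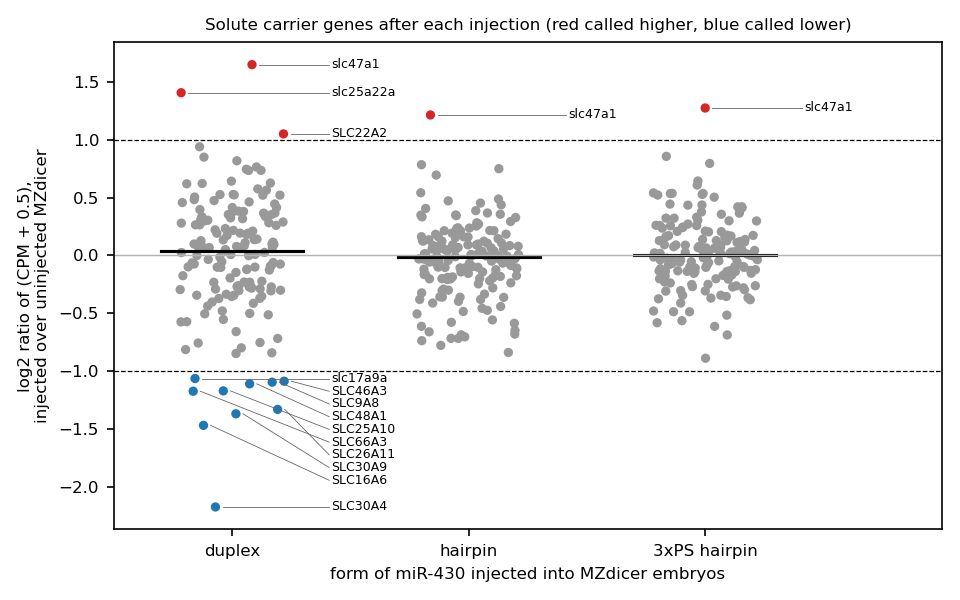
Log2 ratio of CPM + 0.5 over uninjected MZdicer (y axis) of the 158 solute carrier genes for each injected form of miR-430 (x axis); black bars are medians, dashed lines mark 2-fold, red and blue points were called higher and lower. The duplex column has 3 genes above and 10 below the lines, and each hairpin column has slc47a1 alone above and no gene below.

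The 3 forms, all injected from a stock of the same strength, were also compared with each other in 3 pairs, which leave out MZdicer and wild type. The hairpin against the duplex had 3 genes called higher (1.90%, against 2.25% of all genes) and 2 lower (1.27%, against 0.641%). SLC30A4 was 4.12-fold higher with the hairpin (3.70 to 4.60), SLC30A9 2.33-fold (2.08 to 2.61) and SLC25A10 2.24-fold (2.004 to 2.509), while slc25a22a was 3.48 times lower (2.70 to 4.51) and slc52a3-2a 2.70 times (1.88 to 3.96). The 3xPS hairpin against the duplex had 4 called higher (2.53%, against 3.47%) and 0 lower (against 0.439%). These were SLC30A4 at 4.29-fold (3.85 to 4.78), SLC26A11 at 2.43-fold (2.02 to 2.93), SLC9A8 at 2.36-fold (1.81 to 3.09) and SLC30A9 at 2.20-fold (1.97 to 2.47). Of the genes called in these pairs, SLC26A11 and SLC9A8 were under 3 CPM in wild type, and slc52a3-2a in MZdicer and both hairpin libraries. Both vesicular and mitochondrial zinc carriers thus lay more than 2-fold above the duplex level with either hairpin. The 3xPS hairpin against the hairpin had 1 called higher (0.633%, against 0.387%) and 0 lower (against 0.105%), slc25a22a at 2.32-fold (1.78 to 3.06), and a median log2 ratio of 0.03. At 1.5-fold the hairpin had 11 genes above (6.96%, against 7.28%) and 8 below the duplex (5.06%, against 3.99%). The 3xPS hairpin had 11 above (6.96%, against 9.03%) and 6 below the duplex (3.80%, against 2.86%). It had 5 above (3.16%, against 3.19%) and 1 below the hairpin (0.633%, against 0.887%). For SLC30A4 the hairpins themselves were close, at 68.0 and 70.7 CPM.

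The pairs of injected libraries share no library with MZdicer against wild type, so the 31 genes called higher there can be read in them. With the 3xPS hairpin 31 of the 31 were above the duplex level, as were 90.3% of all 1809 genes called higher in MZdicer, with a median log2 ratio of 0.49. With the hairpin 25 of the 31 were above the duplex level (80.6%, against 84.1%), with a median of 0.23. Exceptions included slc22a16, at 14.2 CPM with the duplex and 7.75 with the hairpin. Of the 5 genes called lower in MZdicer, 5 were below the duplex level after the hairpin (against 80.4% of all 550 genes called lower) and 4 after the 3xPS hairpin (against 84.9%), SLC7A3 (ENSDARG00000020645) being the other. All counts against the duplex level use the same duplex library, so a deviation of that library alone would move them together. These genes were picked by their ratios, so the counts are a description, and they are read against the shares over all genes with the same call.

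Related genes could differ in their calls. Among the 158 genes were 12 sets whose names differ in a final letter or which share a symbol. Of these sets, 7 had no gene called in MZdicer against wild type. In the other 5 sets 1 gene was called and its relative was not, though both ratios went the same way, as for SLC7A3 at -1.44 and -0.45 on the log2 scale. In the SLC25A25, SLC25A44 and SLC30A1 sets, without a call, the ratios went opposite ways. Relatives below the minimum of 3 CPM were left out of the sets, and some of those went against a called gene. One was slc52a3-2b, at 0.118 CPM in wild type and 3.61 in MZdicer, while slc52a3-2a was called lower. The second SLC5A6 gene (ENSDARG00000014599), at 1.18 and 3.61 CPM, went the same way as the one called. SLC12A7 had a log2 ratio past the line and its relative slc12a7a, at 17.3 CPM in wild type, 34.7 in MZdicer, 40.2 after the duplex, 26.5 after the hairpin and 37.9 after the 3xPS hairpin, stood just short of it at 0.98, and passed it with scaling to total counts at 1.04. The anion exchanger SLC4A2 was split more widely. One gene (ENSDARG00000028173) was at 8.57, 30.9, 16.9, 18.6 and 24.2 CPM in the order of the groups and 3.60-fold higher in MZdicer (3.06 to 4.25), and the other (ENSDARG00000052330) was at 96.6, 125, 83.5, 91.6 and 112 CPM and not called. SLC43A2 was alike in this: the minor gene (ENSDARG00000036848) was at 3.42, 12.4, 9.91, 7.71 and 12.8 CPM and 3.61-fold higher (2.79 to 4.72), and the major one (ENSDARG00000061120), at 251, 374, 493, 470 and 501 CPM, was not called. The second SLC2A13 gene (ENSDARG00000087867) was at 2.24 CPM in wild type and 4.55 in MZdicer, and the second SLC7A3 gene (ENSDARG00000061566) at 5.11 and 3.61 CPM, and neither was called. In 3 of the 5 sets, SLC4A2, SLC43A2 and SLC12A7, the gene called was the one with the lower level in wild type. How reads shared by similar copies were assigned is not given in the sources used here, but none of the 158 genes gained more than 10% in the deposited column of fractional counts, which also takes in reads left out of the whole counts.

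**Figure D5:**
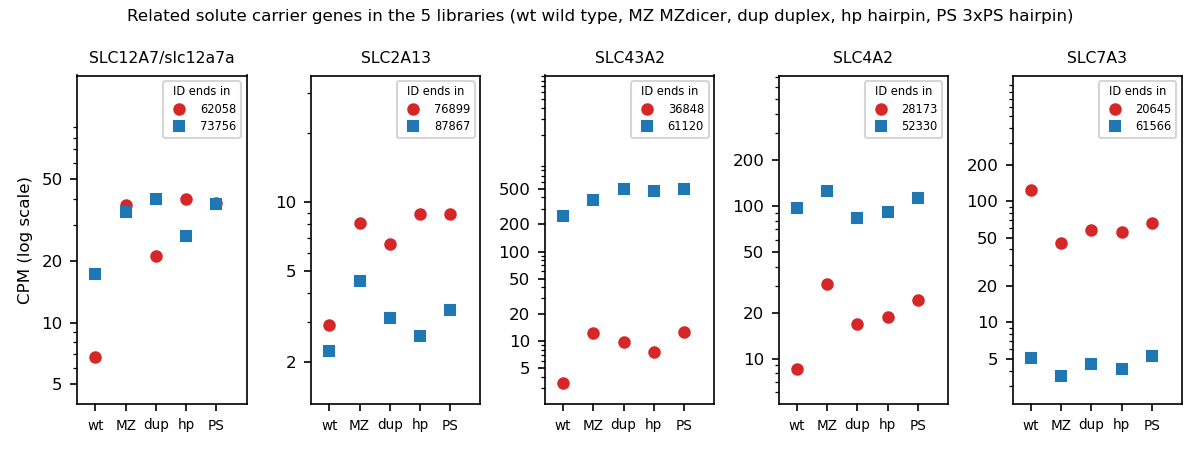
Level in CPM (y axis, log scale) in the 5 libraries (x axis) of the 5 sets of related solute carrier genes whose calls in MZdicer against wild type differed; colours mark the genes by the last digits of their identifiers. The minor SLC4A2 gene goes from 8.57 CPM in wild type to 30.9 in MZdicer, beside 96.6 and 125 CPM for the major gene.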

How the data were processed

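Messenger RNA was measured in 5 libraries, 1 per group. CASAVA 1.8.2 and TopHat2 2.0.8 with the build Zv9 (danRer7) are named in the submitters' processing notes. The counting tool, annotation, strand setting and treatment of reads with several matches were not given in the sources used here. Per the file headers, each deposited table lists a gene length, 3 count columns and 3 RPKM columns for 26158 Ensembl genes. Results rest on the whole-number counts that the authors deposited without normalization. The authors also deposited estimated counts with fractional parts, which were rounded for an alternative. The authors' RPKM values equal the matching counts divided by the length column and scaled to their library total, and were used for levels between genes and as an alternative. Symbols came from a table that names 18804 of the genes.

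TMM factors (0.967 to 1.02) came from edgeR 4.0.16 under R 4.3.3; ratios and 95% exact conditional binomial intervals were computed with scipy 1.17.1 and pandas 2.3.3 in Python 3.11.15. Without molecular identifiers reads are not independent molecules, and these intervals cover counting error only. Ratios were taken on the log2(CPM + 0.5) scale, where differences of low genes come out smaller than they are. The calling was checked on simulated counts. The solute carrier genes, their grouping by family number, the lists and the tests were chosen with earlier results of these data known.

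Genes were named by rule: the 10 called higher and 10 lower in MZdicer against wild type with the interval bound farthest from equality, 6 and 6 for each injection against MZdicer, 4 and 4 for the other comparisons, the 8 with the highest mean RPKM, and, per transport group of at least 5 genes, the 2 most abundant and the 2 of largest ratio. The other called genes, slc3a2a, SLC7A6, SLC7A6OS, slc4a1ap, SLC26A5 and SLC16A1's partner BSG were named after their values were seen. Family 66 was put in a group, and genes sharing a symbol were added to the related sets, after the tables were seen. Alternatives were total-count, DESeq2 1.42.0 and upper-quartile scaling, minimum mean CPM of 1 or none, pseudocounts of 0.1 and 1, the fractional counts, RPKM, and a 1.5-fold threshold added after seeing the data. Sequences of the genes and of miR-430 are not analysed here. One result from the list of partner genes is not reported here.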

Additional observations from a re-analysis of the deposited data

Results flagged for a closer look

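SLC25A28 (ENSDARG00000052994), a mitochondrial iron importer, had 0 whole-number counts in all 5 libraries, while the deposited column of fractional counts, which the comparisons do not use, gave it 97.5 in wild type, 177 in MZdicer, 156.5 after the duplex, 282 after the hairpin and 241 after the 3xPS hairpin. It drew attention because a signal appears outside the main measurement. It is among the 217 solute carrier genes below the minimum.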

How the results depend on the processing

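No call changed direction under the alternatives run. With DESeq2 scaling or a pseudocount of 0.1, 7 genes were called lower in MZdicer than in wild type, in place of 5. In MZdicer against wild type, 28 of the 31 higher calls and 4 of the 5 lower calls were kept in every planned setting, as were 2 of 3 higher and 8 of 10 lower calls for the duplex against MZdicer, and 19 of 21 higher calls for the duplex against wild type. Upper-quartile scaling moved the median of all genes by -0.19 in MZdicer against wild type, by 0.09 for the duplex against MZdicer and by -0.11 for the duplex against wild type. With it 11 genes were called lower in MZdicer than in wild type and 2 with the duplex than in wild type. The solute carrier medians were -0.0135 for MZdicer against wild type, 0.12 for the duplex against MZdicer and -0.073 comparing the 3xPS hairpin with the duplex. Over all genes these medians were -0.198, 0.108 and -0.091.

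Looser minimum levels took in more genes, 206 at a mean of 1 CPM and 339 with none in MZdicer against wild type. With none, a gene needed a count in either library of the pair, so the set differs between comparisons. Shares over all genes are not given for these looser sets, so their counts are not read against a background. With a mean of 1 CPM the calls were 9 lower in MZdicer than in wild type, 5 higher with the duplex and 1 lower with each hairpin than in MZdicer, and 4 lower with the duplex than in wild type. With no minimum they were 47 higher and 13 lower in MZdicer than in wild type, 7 higher and 16 lower with the duplex, 2 lower with the hairpin and 1 lower with the 3xPS hairpin than in MZdicer, 33 higher and 8 lower with the duplex than in wild type (median 0.11), and 5 higher with the hairpin than with the duplex. With a pseudocount of 0.1 or the authors' RPKM, 6 genes were higher with the hairpin than with the duplex and 2 with the 3xPS hairpin than with the hairpin. At 1.5-fold the counts higher and lower were 53 and 22 in MZdicer against wild type and 51 and 9 in the duplex library against wild type. Against MZdicer they were 14 and 18 (duplex), 4 and 12 (hairpin) and 5 and 3 (3xPS hairpin). Against the duplex they were 11 and 8 (hairpin) and 11 and 6 (3xPS hairpin), and between the hairpins 5 and 1. The RPKM setting took ratios of RPKM + 0.1, scaled to library totals, and used no interval, so a call there means a 2-fold ratio alone. The cause of the pseudocount and RPKM differences was not tested. The other counts come from a wider set of genes or a lower threshold. SLC25A16 lost its call with total-count scaling, a pseudocount of 1 and RPKM, and SLC46A3 and slc17a9a lost theirs with the duplex under upper-quartile scaling (-0.98 for slc17a9a on the log2 scale).

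No paired analysis was possible because each group has 1 library, and there was no replicate to leave out. MZdicer had the fewest counts, and the intervals of a gene are widest where its count in either library is small. Differences under 2-fold and levels under 3 CPM are the least certain.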
